A study of Rattus norvegicus with 4 samples.

Results

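Complement and acute phase mRNAs of cultured rat astrocytes were followed through 9 genes, namely Cfb, C2, C3, C1r, C1s, Serping1, Lcn2, Cp and A2m. The genes were chosen by name with array values already known, since measured values of Cfb and Lcn2 in CC-CJ versus AA-CJ led to the choice, so values of that comparison are given as a description without p-values, and nothing is read from a count made in it. The 9 genes were read by 14 of 41012 probes, and all 14 probes were well above background in every RNA, so that all 9 genes were among the 21376 genes kept.

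Complement is a cascade of plasma proteins in which proteases cleave one another until C3 is split and tags a surface for uptake or lysis. The classical pathway starts with C1q, which carries the proteases C1r and C1s, and the alternative pathway runs through factor B. Acute phase proteins are secreted in larger or smaller amounts during inflammation, mostly by the liver. Astrocytes make several complement and acute phase proteins themselves, and C3, Serping1 and Lcn2 are often used as marks of reactive astrocytes.

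Astrocytes came from the cortex of Wistar rat pups (postnatal day 1), and the neurons plated on them came from the hippocampus of mouse embryos (embryonic day 18). CC was the whole co-culture of neurons and astrocytes. CC-CJ was co-culture from which neurons had been detached by cold jet, a stream of ice-cold buffer, leaving mainly astrocytes. AA-CJ was astrocytes cultured without neurons and given the same cold jet. All 3 kinds of culture thus rested on the same rat astrocyte layer, and both cold jet groups were rinsed. Each replicate was pooled, from several animals by the methods and from several independent samples by the series' design text. Mouse mRNA of the neurons met rat probes, and how far it was read was not tested.

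There were 2 arrays with CC-CJ in Cy3 and AA-CJ in Cy5, and the other two carried CC-CJ in Cy3 and CC in Cy5. M is the log2 of Cy3 over Cy5, so a positive M means more signal in CC-CJ, and a level is the log2 signal of 1 RNA after normalization. Since dyes were never swapped, dye and condition cannot be told apart in CC-CJ versus AA-CJ or in CC-CJ versus CC. CC versus AA-CJ sets Cy5 against Cy5. However, AA-CJ was given cold jet and CC was not, so neurons and cold jet cannot be told apart in that comparison. Between 50.3% and 62.6% of probes were well above background per channel. The 10 astrocyte markers summed to between 89.7% and 110% of the AA-CJ mean in all RNAs, and all 10 were above background. Neuron markers summed to 209% and 215% in CC and to 91.6% to 95.9% in CC-CJ. Even so, 4 of 10 neuron markers passed as higher in CC-CJ against AA-CJ and 0 as lower, next to 1.89% and 1.13% of all genes. Mapt was at 0.63 ± 0.11 (adjusted p = 0.0375, limma). Microglia markers summed to 193% and 175% in CC and to 111% to 128% in CC-CJ, with 5 of 8 above background in CC and 2 to 4 in the other RNAs. Endothelial markers were at background except for at most 1 of 7. Fibroblast and meningeal markers were above background for 6 of 8 in every RNA, and summed to between 89.9% and 112% of the AA-CJ mean. Oligodendrocyte lineage markers were above background for 6 to 9 of 10, and summed to between 90.4% and 126%. The part of such cells in the values of the 9 genes was not tested.

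Of the complement genes, Cfb stood out. It encodes factor B, the protease that forms the C3 convertase of the alternative pathway, and its probe lies at chr20:4076976-4077119 (rn4, plus strand). The level of Cfb was 11.02 and 9.76 in AA-CJ and 8.85 and 9.05 in CC. In CC-CJ it was 8.57 and 8.75 on the arrays shared with AA-CJ and 8.23 and 8.65 on those shared with CC. Both AA-CJ levels lay above all others, and both CC levels lay above all 4 CC-CJ levels. The share of all genes whose levels lie apart in this way is not given here. Such an order, in this gene and in those below, is thus only a description. The 4 CC-CJ levels also carry only 2 replicate numbers, and whether same-numbered levels share an RNA extract is not known. M for CC-CJ versus AA-CJ was -2.45 and -1.01 (SD 1.02, n = 2), with a mean of -1.73 ± 0.29. Here and elsewhere, ± is the moderated standard error of the fit (limma), which draws on all 4 arrays and a prior. It is not the standard error of the 2 arrays alone. The mean, of a gene chosen with this value known, was the lowest of the 21376 genes and equals 30.2% of the AA-CJ level. Without array 1 it was -1.01, and without array 2 it was -2.45. In the same-dye comparison of CC with AA-CJ, whose values are differences between arrays of the same number, a choice that leaves the mean unaffected, Cfb was -1.83 and -0.60, with a mean of -1.22 ± 0.41. In an RNA of many cells, fewer cells of a type and less RNA per cell cannot be told apart.

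Between CC-CJ and CC, Cfb did not pass the test. M was -0.61 and -0.41, with a mean of -0.51 ± 0.29 and an adjusted p of 0.426 (limma). The estimate of spread draws on the AA-CJ arrays too, on which Cfb differed most between replicates. The adjusted p (limma) was 0.403 in the value table of the authors and 0.588 with the processed signals of Feature Extraction. The summed microglia and neuron markers were lower after cold jet too, and their part in this value was not tested.

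**Figure D1:**
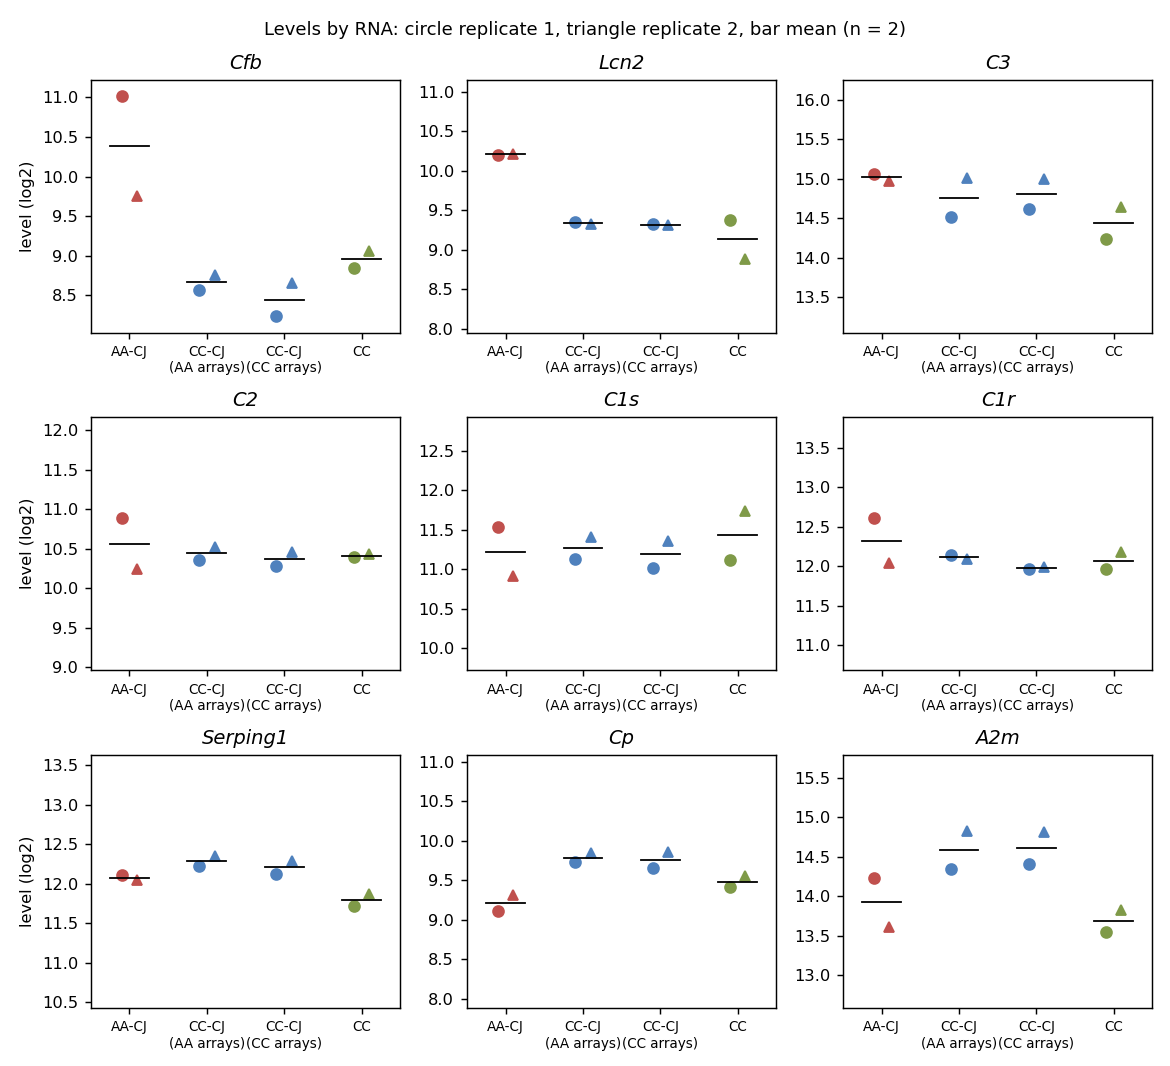
Normalized log2 level of each of the 9 genes in the 8 RNAs, with circles for replicate 1, triangles for replicate 2 and a bar for the mean of 2 replicates. Each panel spans the same range on the log2 scale. By the mean, AA-CJ is highest for Cfb, Lcn2, C3, C2 and C1r, CC for C1s, and CC-CJ for Serping1, Cp and A2m.

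C2, the protease of the classical C3 convertase, is the neighbour of Cfb (chr20:4071504-4071563, rn4), but its levels did not separate by group as those of Cfb did. Over the 8 levels its Pearson r with Cfb was 0.71, and both genes were highest in AA-CJ replicate 1. Its level was 10.89 and 10.25 in AA-CJ, 10.39 and 10.43 in CC, and from 10.28 to 10.52 over the CC-CJ RNAs. The groups overlapped in every comparison. With AA-CJ as the other RNA M was -0.52 and 0.27. With CC it was -0.12 and 0.032, and the mean of -0.042 ± 0.17 had an adjusted p of 0.925.

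C3, the component on which all complement pathways meet, was bright in every RNA. Its level was 15.06 and 14.97 in AA-CJ, 14.51 and 15.00 in CC-CJ on the AA-CJ arrays, 14.62 and 14.99 on the CC arrays, and 14.24 and 14.64 in CC. Both CC levels lay below both AA-CJ levels, whereas CC-CJ overlapped with each. CC versus AA-CJ was -0.93 and -0.32 (mean -0.63 ± 0.20), and CC-CJ versus AA-CJ was -0.55 and 0.036 (mean -0.26 ± 0.14). In CC-CJ versus CC, M was 0.38 and 0.36, and the mean of 0.37 ± 0.14 did not pass the test (adjusted p = 0.254). The probe of C3 is on an unplaced sequence of rn4 (chrUn:64513437-64513496).

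C1r and C1s, the paired proteases of the C1 complex, are neighbours on chromosome 4. Levels of C1r were 12.61 and 12.04 in AA-CJ, 11.97 and 12.18 in CC, and from 11.97 to 12.14 over the CC-CJ RNAs. Levels of C1s, the mean of 2 probes, were 11.53 and 10.91 in AA-CJ, 11.12 and 11.74 in CC, and from 11.02 to 11.41 over the CC-CJ RNAs. For both genes, all groups overlapped. Against CC, CC-CJ had a mean M of -0.090 ± 0.13 for C1r (adjusted p = 0.770) and -0.24 ± 0.20 for C1s (adjusted p = 0.579). For CC-CJ versus AA-CJ the mean was -0.21 ± 0.13 for C1r and 0.048 ± 0.20 for C1s. The pair of C1s probes differed in sign there, with means of 0.20 and -0.10.

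Serping1 encodes the C1 inhibitor, which blocks C1r and C1s. Its level was 12.11 and 12.05 in AA-CJ, 12.22 and 12.35 in CC-CJ on the same arrays, 12.13 and 12.28 on the CC arrays, and 11.71 and 11.87 in CC. All 4 CC-CJ levels lay above those of AA-CJ and CC, and CC lay below AA-CJ. Against CC, M was 0.42 on both arrays of CC-CJ, with a mean of 0.42 ± 0.086, or 133% of the CC level, and an adjusted p of 0.0724. It passed in the value table of the authors, with an adjusted p (limma) of 0.0497 and a mean of 0.52. With the processed signals of Feature Extraction it did not (adjusted p = 0.250). Set against AA-CJ, M was 0.11 and 0.30, and CC versus AA-CJ was -0.30 and -0.12. Median centring of M without loess turned the mean against CC to -0.82, where the median of all genes was -0.59.

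Among the acute phase genes, Lcn2 was the counterpart of Cfb. It encodes lipocalin 2, which binds bacterial siderophores and so withholds iron, and its probe lies at chr3:11511592-11511651 (rn4, minus strand). The level of Lcn2 was 10.20 and 10.22 in AA-CJ and 9.38 and 8.89 in CC. In CC-CJ it was 9.35 and 9.33 on the AA-CJ arrays, with 9.33 and 9.31 on the CC arrays. Both AA-CJ levels lay above the other 6, and CC-CJ overlapped with CC. M for CC-CJ versus AA-CJ was -0.85 and -0.88, with a mean of -0.87 ± 0.12, or 54.9% of AA-CJ. The text of the study names Lcn2, together with Megf6, among mRNAs that co-culture raised. The direction here, which is the opposite for both, was taken from the dyes given in the labels and methods. For Cyp26b (taken as Cyp26b1) and Tm7sf2, which the study names as lowered, the direction here was the same as in the study. In the value table of the authors, turned the same way, the mean of Lcn2 was -0.84. CC versus AA-CJ was -0.79 and -1.31, with a mean of -1.05 ± 0.17. Against CC, the mean M of CC-CJ was 0.18 ± 0.12 (-0.053 and 0.42 on the arrays, adjusted p = 0.482).

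Cp encodes ceruloplasmin, a copper-binding ferroxidase, and ran the other way. Its level over 4 probes was 9.12 and 9.32 in AA-CJ, 9.73 and 9.85 in CC-CJ on the same arrays, 9.66 and 9.86 on the CC arrays, and 9.42 and 9.55 in CC. The order was CC-CJ above CC above AA-CJ without overlap. Against AA-CJ, M was 0.61 and 0.53 (mean 0.57 ± 0.081), or 148% of AA-CJ, and CC versus AA-CJ was 0.37 and 0.22 (mean 0.29 ± 0.11). In CC-CJ versus CC the mean of 0.28 ± 0.081 had an adjusted p of 0.168. Under median centring Cp was -0.40 against AA-CJ, where the median of all genes was -0.48, and -0.70 against CC.

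The Cp probes were not alike. The pair at chr2:105129630-105129689 and chr2:105129670-105129729, which overlap each other, had mean M of 0.90 and 0.84 against AA-CJ. A probe farther upstream (chr2:105118525-105118581) had 0.39. The probe at chr2:105131362-105131414, described in the files as bilitranslocase mRNA and lying on the opposite strand, had 0.15. Without it, the mean over the 3 ceruloplasmin probes was 0.71 against AA-CJ and 0.28 against CC.

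**Figure D2:**
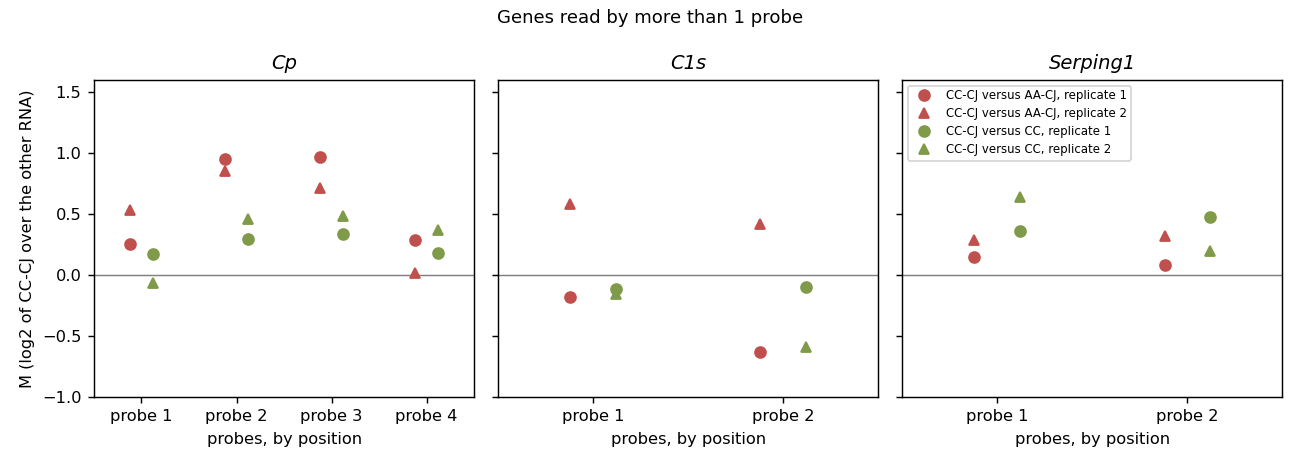
M of every probe of Cp, C1s and Serping1 on each array, with probes ordered by position, circles for replicate 1 and triangles for replicate 2. The middle pair of Cp probes is highest against AA-CJ (mean M 0.90 and 0.84), and the last, on the opposite strand, is at 0.15.

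A2m encodes alpha-2-macroglobulin, a broad protease trap and a major acute phase protein of the rat. Its level was 14.24 and 13.62 in AA-CJ, 14.35 and 14.83 in CC-CJ on the same arrays, 14.41 and 14.82 on the CC arrays, and 13.55 and 13.83 in CC. All CC-CJ levels lay above the levels of AA-CJ and CC, which overlapped with each other. In CC-CJ versus CC, M was 0.86 and 0.99, with a mean of 0.93 ± 0.23, or 190% of CC. This was rank 5 from the top among 21376 means, but the adjusted p was 0.116. The estimate of spread draws on the AA-CJ arrays too, between which A2m varied most. In the value table of the authors the adjusted p (limma) was 0.0211. It was 0.281 with the processed signals of Feature Extraction and 0.215 with an eBayes trend and robust prior, so whether A2m passed depended on the processing. Set against AA-CJ, M was 0.11 and 1.21 (mean 0.66 ± 0.23), and CC versus AA-CJ was -0.75 and 0.22 (mean -0.26 ± 0.32). Median centring gave -0.47 against CC, where the median of all genes was -0.59, and -0.95 against AA-CJ.

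**Figure D3:**
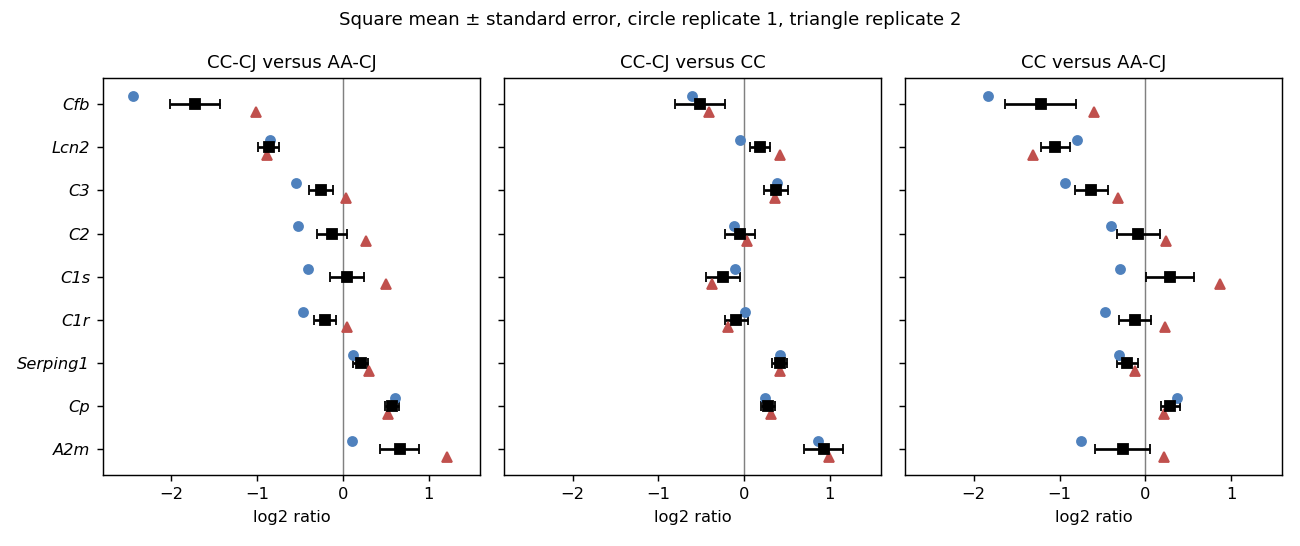
Log2 ratio of each gene in the 3 comparisons, with circles for replicate 1 and triangles for replicate 2. Squares are the mean (n = 2) with the moderated standard error of the fit, which draws on all 4 arrays. CC versus AA-CJ is the difference of the M values of same-numbered arrays. Cfb and Lcn2 lie below 0 against AA-CJ in both CC-CJ and CC, and A2m and Serping1 lie above 0 in CC-CJ versus CC.

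In CC-CJ versus CC, the comparison that asks what cold jet changes in co-culture, limma put 0 of the 9 genes past an adjusted p of 0.05, either way, where 2.25% of all genes passed as lower and 0.0982% as higher. At an unadjusted p of 0.05 there were 4 (C3, Serping1, Cp and A2m), all with positive M, where 5.11% of all genes were past this p as higher and 11.8% as lower. By the limit in the methods, M past the mean plus or minus 2 SD of all probes on both arrays, A2m alone counted as higher and 0 of 9 as lower, where 0.117% and 1.27% of all probes did. In CC-CJ versus AA-CJ, Cfb and Lcn2 were past the threshold as lower (2 of 9, where 1.13% of all genes were) and Cp as higher (1 of 9, where 1.89% were), and the limit of the methods named these 3 genes too, where 0.627% of all probes were lower and 1.01% higher. In CC versus AA-CJ, Lcn2 was past it as lower (1 of 9, where 0.0795% of all genes were) and 0 of 9 as higher, where 2.57% were. Nothing is read from these last counts, because the genes were selected on those arrays.

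Median centring without loess put all of the 9 genes but Cp below the median of all genes against AA-CJ, and all but A2m against CC. After loess, the group had no common shift. The median M of the 9 genes was -0.12 in CC-CJ versus AA-CJ, where that of all genes was -0.016, and 0.18 in CC-CJ versus CC, where that of all genes was -0.024. Against AA-CJ it was -0.47 on array 1 and 0.27 on array 2. The AA-CJ replicates differed by over 0.5 in 5 of 9 genes, where 4.01% of all genes did, and replicate 1 was the higher in each of these, which were Cfb (1.26), C2 (0.64), A2m (0.62), C1s (0.62) and C1r (0.57). Lcn2 differed by -0.020 between the same RNAs. Nothing is read from the count of 5, because values of Cfb and Lcn2 on these arrays led to the choice of genes. In CC-CJ, 0 of 9 genes differed by over 0.5 between replicates on either array pair, and in CC only C1s did (-0.61). The mean CC-CJ level on the AA-CJ arrays was within 0.22 of that on the CC arrays for all 9 genes. Over 21376 genes, replicate differences of CC-CJ on the pairs of arrays had an r of 0.465, and whether these pairs shared an RNA extract is not given in the sources used here.

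Over the 8 levels, the 36 pairs among the 9 genes had a median Pearson r of 0.27, from -0.84 for Cfb with Cp to 0.89 for Serping1 with A2m. The points come from 4 arrays and share their normalization, so these are descriptions. Among 224 other genes with an SD of at least 0.5 times that of Cfb, the levels most like it were those of RGD1560208 (r = 0.975), Hp (0.971), Megf6 (0.969), Cyp26b1 (0.930) and Tm7sf2 (0.903). Hp encodes haptoglobin, an acute phase protein that binds free haemoglobin, and Cyp26b1 an enzyme that breaks down retinoic acid. Against AA-CJ, the mean M was -1.23 ± 0.17 for Megf6, -1.03 ± 0.11 for Cyp26b1 and -1.13 ± 0.093 for Tm7sf2. Among 1228 genes by the same rule, the levels most like Lcn2 were those of Slc7a3 (0.980), Acly (0.975), Sod2 (0.974), Chchd5 (0.970) and Cdc42ep5 (0.969). Sod2 encodes the manganese superoxide dismutase of mitochondria, and Acly makes acetyl-CoA for lipid synthesis.

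The proximal promoters of Lcn2, C3 and Cp are shown because these genes had different patterns while sharing letters that acute phase factors bind. They run from 250 bases before to 50 bases after the start (RefSeq, GRCr8) and are written 5′ to 3′ on the strand of the gene. Lcn2 is at chr3:36081731-36082030 (minus strand), C3 at chr9:2201290-2201589 (minus strand) and Cp at chr2:104368420-104368719 (plus strand). Capitals mark TTGCNNAA on either strand, a core of C/EBP sites, and in Lcn2 also GGANNNTCC, a core of NF-kB sites.
Lcn2: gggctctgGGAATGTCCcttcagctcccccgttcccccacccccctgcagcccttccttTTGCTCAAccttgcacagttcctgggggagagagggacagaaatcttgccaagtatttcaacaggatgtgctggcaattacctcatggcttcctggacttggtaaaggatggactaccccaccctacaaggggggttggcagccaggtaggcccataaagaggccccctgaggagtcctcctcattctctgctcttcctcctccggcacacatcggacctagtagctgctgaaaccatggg
C3: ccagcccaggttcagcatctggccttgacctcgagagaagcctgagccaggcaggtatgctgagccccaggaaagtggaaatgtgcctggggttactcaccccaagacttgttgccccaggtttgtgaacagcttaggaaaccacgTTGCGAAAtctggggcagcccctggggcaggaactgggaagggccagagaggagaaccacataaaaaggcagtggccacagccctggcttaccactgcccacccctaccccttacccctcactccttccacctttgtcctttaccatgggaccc
Cp: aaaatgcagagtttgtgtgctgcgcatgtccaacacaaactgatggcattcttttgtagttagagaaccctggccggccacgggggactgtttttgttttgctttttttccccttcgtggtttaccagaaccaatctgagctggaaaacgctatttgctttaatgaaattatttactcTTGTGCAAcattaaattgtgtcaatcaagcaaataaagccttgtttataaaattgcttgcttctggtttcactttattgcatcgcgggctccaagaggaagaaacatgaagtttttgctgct

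Promoters of 4 of the 9 genes were matched by symbol, C1r being the other, and all 4 held the C/EBP letters, which 10.6% of 33469 rat promoters hold. They began at -191 in Lcn2, at -104 in C3, at -72 in Cp and at -83 in C1r, counted from the start. The NF-kB letters were in Lcn2 alone of the 4, at -242, and 8.25% of all promoters hold them. TTCNNNGAA of STAT sites (8.87% of promoters) and GAAANNGAA of interferon response elements (9.71%) were in 0 of the 4. The letters were picked with these sequences in view, and a match is no evidence that a factor binds.

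Of 104 other genes in 8 lists of complement and inflammation, 56 were tested. Against CC, 2 of 56 fell in CC-CJ and 0 rose, next to 2.25% and 0.0982% of all genes, so that the lists as a whole were near the background. Both that fell were chains of C1q, the molecule that C1r and C1s are bound to. C1qa had M of -0.98 and -1.14 (mean -1.06 ± 0.087, adjusted p = 0.00167), and C1qb had -0.74 and -0.95 (mean -0.84 ± 0.12, adjusted p = 0.0157), so both fell on both arrays. The remaining chain, C1qc, had a mean of -0.13 ± 0.087 (adjusted p = 0.480). Aif1, a microglia marker, fell as well (mean -0.53 ± 0.096, adjusted p = 0.0443), 3 of the 5 microglia markers tested passed as lower, and their part in the C1q values was not tested. Aif1 was well above background in CC alone, where it was at least 1.45-fold higher than in CC-CJ.

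Of the C1q chains, C1qa and C1qb were also higher in CC than in AA-CJ, where C1qb rose by 1.43 ± 0.16 (adjusted p = 0.00749). C1qc had -0.0096 and 0.27 there (mean 0.13 ± 0.12, adjusted p = 0.624). CC was not given cold jet, so neurons and cold jet cannot be told apart in CC versus AA-CJ. In CC-CJ versus AA-CJ, C1qb had a mean of 0.59 ± 0.12 (adjusted p = 0.0521) and C1qc of -0.0029 ± 0.087 (adjusted p = 0.989). C1qa was not well above background in AA-CJ, and was at least 4.76-fold higher in CC (adjusted p = 0.000377) and at least 2.28-fold higher in CC-CJ (adjusted p = 0.00269). Each bound is the smaller of the fold in the fit and the fold of the levels, which was 6.27 for CC. In the latter, the lowest signal well above background on each array stood in for AA-CJ where the probe was dimmer. C4a, which encodes a C4 protein that C1s cleaves, had M of -0.64 and 0.088 against AA-CJ, and Masp1, a protease of the lectin pathway, had -0.57 and 0.034. Both thus changed sign between the arrays, as C2, C3, C1s and C1r did. Over all genes, 36.2% were below 0 on both of these arrays and 29.4% above 0 on both, so a change of sign was common.

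**Figure D4:**
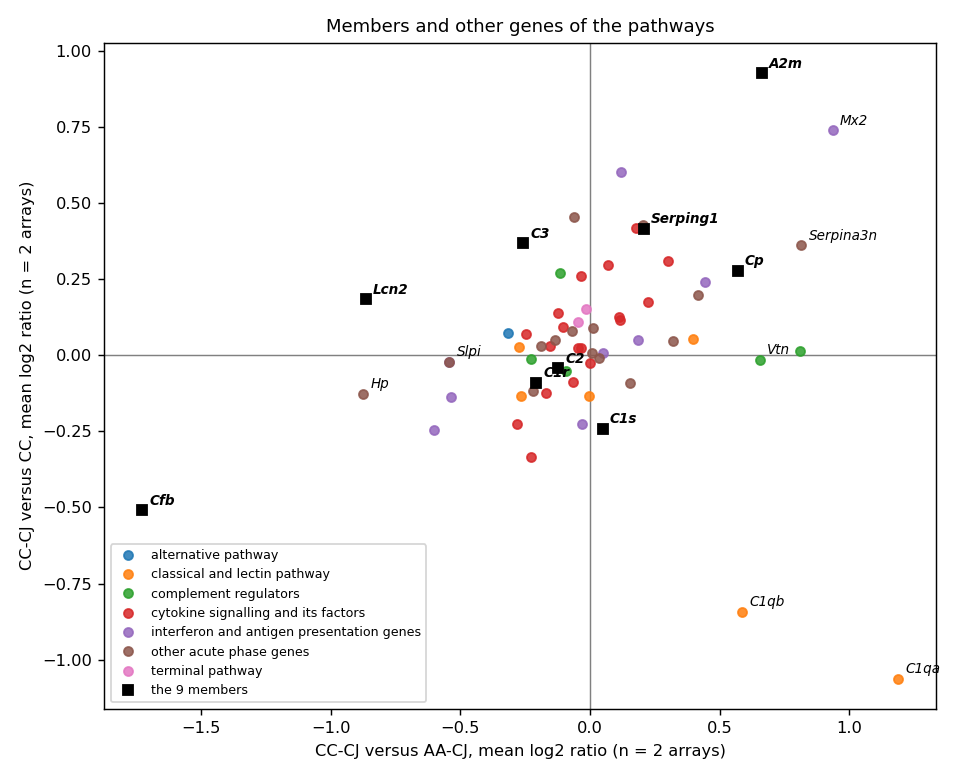
Mean M in CC-CJ versus AA-CJ (horizontal) and in CC-CJ versus CC (vertical) for the 9 genes (black squares) and the 56 tested genes of the other lists (circles, coloured by list), with 2 arrays behind each mean. Both axes share the CC-CJ group. Cfb lies farthest to the left, A2m highest, and C1qa and C1qb lowest.

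Among the complement regulators, Vtn, vitronectin, which blocks the lytic complex, was not well above background in AA-CJ and was at least 1.52-fold higher in CC-CJ (adjusted p = 0.0177). Against CC it did not pass, with a mean of -0.014. Cfd, the protease that cleaves factor B, had a mean of -0.32 ± 0.11 against AA-CJ (adjusted p = 0.160). Of the terminal pathway 2 genes were tested and 0 passed in any comparison, next to 0.0795% to 2.57% of all genes by comparison and direction. Of 8 complement receptors, 7 had a probe and 0 were kept by the filter on dim probes.

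Among the other acute phase genes, 15 of 27 were tested. Slpi, a secreted inhibitor of neutrophil proteases, fell in CC-CJ versus AA-CJ (-0.65 and -0.44, mean -0.54 ± 0.093, adjusted p = 0.0377). Serpina3n, a serine protease inhibitor, rose on both arrays (mean 0.82 ± 0.15, adjusted p = 0.0465), and median centring turned it to -0.72. Hp had M of -1.25 and -0.50, with a mean of -0.88 ± 0.17 and an adjusted p of 0.0518. The median of the list was 0.0082, and against CC 0 of 15 passed, next to 2.25% of all genes as lower and 0.0982% as higher.

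Of 18 tested genes of cytokine signalling and its factors, 0 passed in any comparison. Of all genes, 0.0795% to 2.57% passed by comparison and direction, so a count of 0 is near that share. Socs3, an inhibitor of cytokine receptors, had M of -0.25 on both arrays against AA-CJ (adjusted p = 0.145), and Cebpd, a C/EBP factor, was -0.30 ± 0.12 in CC versus AA-CJ (adjusted p = 0.269). Of 9 interferon and antigen presentation genes, Psmb9, a subunit of the immunoproteasome, fell in CC-CJ versus AA-CJ by 0.54 on the log2 scale (adjusted p = 0.0329). Psmb9 was the only gene of this list to pass there, next to 1.13% of all genes as lower and 1.89% as higher. Its partner Psmb8 had a mean of -0.60 ± 0.16 (adjusted p = 0.0896), and Mx2 had 1.47 and 0.40 (adjusted p = 0.139).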

How the data were processed

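RNA was measured on 4 Agilent 2-colour rat arrays of 1 slide, scanned on 1 day. The authors deposited spot intensities of both channels on a linear scale from Agilent Feature Extraction 9.5.1.1, per the submitters' processing notes, with its log10 ratio of Cy5 over Cy3. They also deposited a table of processed ratios after OLIN and OSLIN normalization, which proved to be log2 of Cy5 over Cy3 (with its sign turned, r with M of 0.90 to 0.952 by array, across probes, which are not independent replicates). Its column medians were -0.025 to 0.0085, and how it was centred stays unknown. OLIN was not run here.

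Ratios were obtained with limma 3.58.1 (R 4.3.3), using normexp with offset 50 on mean signals and loess with span 0.3 on M. Control spots and 121 to 179 outlier spots per array were left out, and levels came from Aquantile. The filter kept 24880 of 41012 probes, those that both arrays of 1 RNA group or more showed well above background, which gave 21376 gene means. Each comparison was a coefficient in lmFit with eBayes, and CC versus AA-CJ was their difference. The spread rests on 2 residual degrees of freedom and a prior of 4.67, and p-values were adjusted by Benjamini-Hochberg over all genes. The number of arrays limits the precision. The fit was tested on simulated data.

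Members and gene lists were chosen with earlier results of these data known. Apart from the 9 members, the text names genes of the other lists past the threshold against CC, up to 3 per list with the largest mean in each other comparison, set markers, and the 5 genes most like Cfb and Lcn2. C1qc, C4a, Masp1 and Psmb9 against AA-CJ were named after their values were seen. Of 168 listed names, 14 had no probe, and the values of 1 regulator are not reported here. A RefSeq accession was given for 16321 probes and named 10835 of them, and probe positions are those of rn4 in the files, without annotation of exons. Promoters are those of RefSeq, GRCr8.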

Additional observations from a re-analysis of the deposited data

How the results depend on the processing

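Of the 9 genes, Cfb and Lcn2 were below 0 in CC-CJ versus AA-CJ in each alternative run, Cfb from -2.76 to -1.01 and Lcn2 from -1.93 to -0.84. Their values in that comparison led to the choice of genes, and the runs share the same arrays. Nothing is read from this. The main counts of genes past the threshold were 645 in CC-CJ versus AA-CJ, 502 in CC-CJ versus CC and 567 in CC versus AA-CJ. The processed signals of Feature Extraction gave 78, 275 and 249 genes, with 0 of the 9 in the first and last. Offset 16 gave 336 genes in the first. Requiring both channels of all arrays above background gave 290 and 348 genes in the other two. An eBayes trend with a robust prior gave 66 and 332 genes in CC-CJ versus AA-CJ and CC-CJ versus CC, and 0 of the 9 in the comparisons with AA-CJ. The authors' table gave 2 of the 9 against CC and the limit of the methods gave 1. The cause of these moves was not tested.

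Median centring in place of loess did not remove any dependence of M on intensity, in which dye and condition cannot be told apart. It moved the median of all genes to -0.48 against AA-CJ and -0.59 against CC. It called 13240 and 14344 genes and 9 and 8 of the 9, with medians of -1.29 and -1.06. Against AA-CJ it reversed C1s (-1.20), Serping1 (-1.16), Cp (-0.40) and A2m (-0.95), and against CC it reversed Lcn2 (-0.84), C3 (-1.06), Serping1 (-0.82) and Cp (-0.70). Relative to the median of all genes, only Cp (0.082) stayed above 0 against AA-CJ and only A2m (0.12) against CC. In the same-dye comparison of CC with AA-CJ it gave -1.31 for Cfb, -1.10 for Lcn2 and -0.90 for C3.

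With the replicate number as a block, 164, 296 and 286 genes passed in the 3 comparisons, with 1 of the 9 in CC-CJ versus AA-CJ and 0 in CC versus AA-CJ. No source says that the numbers pair the samples, and deviations of same-numbered arrays in M correlated at -0.11 over genes, with 0.465 for their CC-CJ levels and -0.40 for their Cy5 levels, so the fit has no pairing. A crossed block, added after seeing the data, gave 1464 and 840 genes in the comparisons of CC-CJ, and 1 of the 9 against CC. Leaving out 1 array at a time gave 108 to 1116 genes in CC-CJ versus AA-CJ, 204 to 682 in CC-CJ versus CC and 349 to 643 in CC versus AA-CJ, and 1 to 3, 0 to 2 and 0 to 3 of the 9.

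Among genes of the other lists in CC-CJ versus AA-CJ, the call held in 7 of 14 alternatives for Slpi and for the neuron marker Mapt, 8 of 14 for Psmb9, 9 of 14 for Serpina3n, 9 of 13 for Vtn and 13 of 13 for C1qa. In CC-CJ versus CC it held in 12 of 13 for C1qa, 12 of 14 for C1qb and 9 of 13 for Aif1, which under median centring was at the median of all genes (0.0100 above it).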
